A study of Homo sapiens with 27 samples.

Results

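The 34 genes described here are human protein-coding genes whose main mRNA carries no intron and that are not histone, heat-shock or immediate-early genes. They were chosen by symbol, not by a measured value, and were looked up by Ensembl gene ID among the 34464 genes of the deposited table. The IDs of 32 matched. LENG9 and PIGW had no row under their current ID and were not analysed here. In GENCODE release 44 placed on GRCh37, the main mRNA has 1 exon in 33 of the 34 genes, and PIGW, with an mRNA of 3 exons, goes against the rule. CLDN4, PURA and TAF7 also have annotated protein-coding transcripts with introns. A mean above 1 FPKM (fragments per kilobase of transcript, scaled to sequencing depth) was reached by 31 genes, which are called the intronless genes below. THBD, the thrombomodulin gene, had a mean of 0.139 FPKM (0.0577 to 0.245 over all libraries) and was not tested.

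The samples were 27 libraries of polyA RNA from U2OS, a human osteosarcoma cell line, grown in DMEM with serum. The cells carried a lentiviral control shRNA or the shRNA TPR A or TPR D, the latter 2 directed against the nuclear pore protein TPR. Each shRNA had 3 replicates, and each replicate was split with detergent into nuclear and cytoplasmic/ER RNA beside a total RNA sample. The labels do not say whether replicates were separate cultures or infections, so p-values measure the spread between these samples, each set of 3 libraries being called a culture here, and the values hold for this cell line and these shRNAs. TPR mRNA, the check of the labels, was at 29.9 ± 1.91 FPKM in control nuclei (SD, n = 3), 2.13 ± 0.423 with TPR A and 2.50 ± 0.732 with TPR D. In total RNA the TPR mRNA fell by 2.59 (TPR A) and by 2.44 (TPR D) on the log2 scale (limma, adjusted p = 0.00122 and 0.0016).

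Most human mRNAs are spliced, and splicing helps to load the TREX complex and other export factors onto the transcript before it passes the nuclear pore. An mRNA without introns is made without this step and has to reach the export receptor NXF1 through factors bound at its cap, its sequence or its 3′ end. TPR forms much of the basket on the nuclear side of the pore, where it anchors the TREX-2 complex, so the comparison asked where intronless mRNAs reside with and without TPR. The N/C ratio is the nuclear level over the cytoplasmic/ER level, given as a log2 value. Because every library was scaled to the same typical gene, an N/C ratio of 0 means the nuclear share of a typical gene, not equal numbers of molecules, and a change common to all genes cannot be seen.

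Libraries of control replicate 2 stood apart. Transcripts of the mitochondrial genome made up 21.8% of FPKM in its library labelled nuclear and 0.738% in its library labelled total. The other 8 nuclear libraries held 0.774% to 2.42%, the other 8 total libraries 15.8% to 24.7%, and the 9 cytoplasmic/ER libraries 26.5% to 37.9%. The share in its library labelled nuclear thus lay within that of the other total libraries. That in its library labelled total lay near that of the other nuclear libraries. Whether the labels were exchanged was not tested, and N/C ratios of this culture are uncertain. Labels were kept as given, and the main results that rest on these libraries are also given without this culture. By the steps between low values, each FPKM corresponded, over 1 kb of transcript, to 46.2 to 62.2 reads in nuclear, 32.5 to 49.0 in cytoplasmic/ER and 41.6 to 89.9 in total libraries. Of the markers of bone and mesenchymal cells SPARC (269 to 949 FPKM), VIM, COL1A1 and RUNX2 (6.25 to 25.1 FPKM) were present, whereas COL1A2 stayed at or below 0.744 FPKM and TWIST1 at or below 0.0765 FPKM. The epithelial marker EPCAM was at 1.43 to 6.87 FPKM, and PTPRC, CD3E, CDH5 and ALB, markers of blood, endothelial and liver cells, were at 0 to 1.22 FPKM.

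A spliced transcript loses its 5′ splice sites, whereas an intronless mRNA keeps any sequence of this kind. GGTAAG, a form of the 5′ splice site consensus, was searched on the mRNA strand only. It was found in 12 of the 31 mRNAs (38.7%), beside 24.5% of 12381 protein-coding mRNAs and 17.9% of 173 other single-exon mRNAs. Matches numbered 0.135 per kb in the intronless genes and 0.0821 per kb in all protein-coding genes tested. The windows below come from the GENCODE release 44 transcripts on GRCh37 and are shown for those members whose localization or level is described in full and that hold the motif. Capitals mark the motif, each window runs 5′ to 3′ on the mRNA, and the coordinates are those of the motif. EXOC8, with the highest N/C ratio of the set in control cells, held 3 matches, of which the first 2 lie in the coding sequence and the third in the 3′ UTR. MARS2 held 1 in the coding sequence and 1 in the 3′ UTR, and the matches of DNAJC30, SOX12 and TSPYL4 lie in the 3′ UTR.
EXOC8, chr1:231471728-231471733, minus strand: ccagaagccctgGGTAAGctcaaagaagag
EXOC8, chr1:231471696-231471701, minus strand: gaaaagttgtggGGTAAGtaactttgagca
EXOC8, chr1:231470562-231470567, minus strand: aattggttttaaGGTAAGttttagtcaaaa
MARS2, chr2:198571054-198571059, plus strand: tctcatatcataGGTAAGgacattctcaaa
MARS2, chr2:198572149-198572154, plus strand: aggggaaagatgGGTAAGagacagtgttgc
DNAJC30, chr7:73096548-73096553, minus strand: gacctggtccagGGTAAGaatgggatcggt
SOX12, chr20:308381-308386, plus strand: tgggaattgagaGGTAAGgtctttctctgg
TSPYL4, chr6:116573477-116573482, minus strand: ccatgtacttatGGTAAGctatttgggtat

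The 31 intronless mRNAs ran from 1259 nt (RNF113A) to 11511 nt (PURA), with a median of 4050 nt against 3324 nt for multi-exon genes and 2204 nt for other single-exon genes. Their median GC content was 49.7%. Levels spanned a wide range per length. RHOB, a small GTPase of endosomes and the actin cytoskeleton, stood highest with a mean of 118 FPKM over all libraries (53.3 to 179 FPKM). TAF7, a subunit of the transcription factor TFIID, followed at 44.7 FPKM, RRS1, which acts in assembly of the large ribosomal subunit, at 32.6 FPKM, and the transcription factor SOX12 at 30.2 FPKM. At the lower end stood the ubiquitin ligase adaptor KBTBD7 at 1.75 FPKM and the Wnt receptor FZD8 at 1.77 FPKM. In all, 13 of the 31 exceeded 10 FPKM.

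Reads of several members can be shared with other genes, through overlap on either strand or through like sequence. For overlaps on the other strand this depends on the strand setting of the quantification. That setting is not given in the sources used here, although the library kit was directional. Of the 31-base words of the mRNA, 50.1% in FEM1A occur also in another gene's transcripts, most of them in an antisense lncRNA, and 29.6% in KTI12, all with TXNDC12. The share was 28% in ZXDB, 23.4% in CHMP1B, 17.8% in KBTBD7 and 17.2% in KBTBD6, which share words with each other, and 14.9% in EXOC8, whose gene overlaps SPRTN on the other strand by 749 nt. The values of these genes are uncertain to that extent. MARS2, DDX28, FJX1, PRMT6, B3GALT6, TSPYL4 and TSPYL5 shared none.

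In control cells the N/C ratios of the intronless genes lay on both sides of that of a typical gene. Their median N/C ratio was 0.21, with 20 of 31 above 0, from -0.85 in SOX12 to 1.51 in EXOC8, while the median over all 14611 genes tested was -0.01. The median was 0.33, with 25 of 31 above 0, once control replicate 2 was left out. By limma 5 passed the threshold as more nuclear (20.2% of all genes did so) and 2 as more cytoplasmic (19.2% of all genes). With the culture as a block, which the same-culture libraries justify, 11 members passed, FZD1, FZD8, TSPYL1 and ZXDB being added on the nuclear side. Of all genes 23.5% then passed as nuclear and 23.4% as cytoplasmic. Over both directions together, the share of members called was not above that of all genes. On the nuclear side alone it was above with the block but below without it. On the cytoplasmic side it was below in both fits. For the 4 added genes, in that order, the adjusted p was 0.00585, 0.0377, 0.00498 and 0.00576. Of 110 spliced relatives 38 passed as nuclear and 15 as cytoplasmic, with a median of 0.32.

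EXOC8 encodes a subunit of the exocyst, which tethers secretory vesicles to the plasma membrane. Its gene lies at chr1:231468499-231473598 on the minus strand as a single exon. In control cells it was at 3.89, 4.62 and 4.63 FPKM in the nucleus and at 1.16, 1.59 and 1.82 FPKM in the cytoplasm, so that the fractions did not overlap. After scaling to a typical gene, the nuclear level was 2.86-fold the cytoplasmic one (log2 1.51 ± 0.29 SE, adjusted p = 0.000343). Its partners in the exocyst are encoded by spliced genes, and 5 of 8 of them passed the same test, among them EXOC1 at 1.71 and EXOC6 at 1.86 on the log2 scale.

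KBTBD7 and KBTBD6, paired adaptors of a CUL3 ubiquitin ligase on chromosome 13, were both more nuclear than a typical gene. The N/C ratio of KBTBD7 (chr13:41763970-41768705, minus strand) was 1.58, 1.21 and 1.16 in the 3 control cultures (log2 1.31 ± 0.31 SE, adjusted p = 0.00202). That of KBTBD6 (chr13:41701705-41706938, minus strand) was 1.39, 0.98 and 1.08 (log2 1.15 ± 0.21 SE, adjusted p = 0.000243). In each control culture these mRNAs were thus higher, relative to a typical gene, in the nuclear library. The shared words between the 2 genes mean that the values are not independent.

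FZD7, a Wnt receptor of the Frizzled family (chr2:202898578-202903164, plus strand), had N/C ratios of 1.36, 0.40 and 0.83 (log2 0.86 ± 0.29 SE, adjusted p = 0.022). TAF7 (mRNA at chr5:140698057-140700351, minus strand) had 1.09, 0.49 and 0.95 (log2 0.84 ± 0.22 SE, adjusted p = 0.00372). Control replicate 2 gave the lowest ratio for both genes. The other Frizzled receptors without introns were at 0.64 (FZD1), 0.65 (FZD8) and -0.10 (FZD2), each with a spread over the cultures of 0.29 to 0.51 (SD, n = 3), and did not pass the test without the block.

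On the cytoplasmic side, SOX12 (chr20:306196-310868, plus strand) was at 28.6, 20.8 and 29.9 FPKM in the nucleus and 53.3, 43.0 and 49.5 FPKM in the cytoplasm (log2 -0.85 ± 0.23 SE, adjusted p = 0.00623). DNAJC30, a mitochondrial J-domain protein (chr7:73095248-73097783, minus strand), was at 4.44, 2.78 and 4.24 FPKM in the nucleus and 6.88, 6.36 and 5.76 FPKM in the cytoplasm (log2 -0.70 ± 0.25 SE, adjusted p = 0.0283). In neither gene did the fractions overlap. Without control replicate 1 FZD7, TAF7 and DNAJC30 no longer passed, without control replicate 2 DNAJC30 did not, and without control replicate 3 FZD7 did not. EXOC8, KBTBD7, KBTBD6 and SOX12 passed in each of these 3 cases. FZD7 also failed to pass with no minimum level. With replicates 2 and 3 alone only EXOC8 and KBTBD6 passed.

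**Figure D1:**
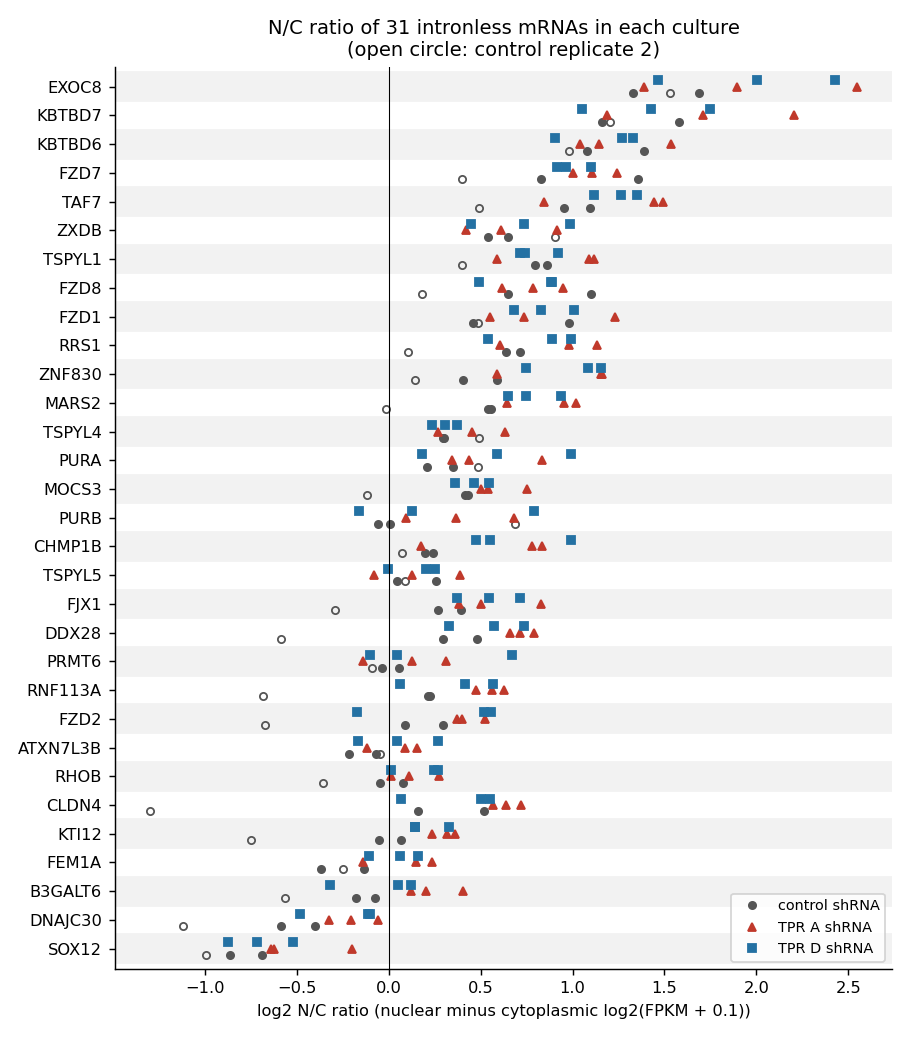
The log2 N/C ratio (x axis) of each of the 31 intronless genes (y axis, ordered by the control mean) in 3 control, 3 TPR A and 3 TPR D cultures, 1 point per culture. EXOC8, KBTBD7 and KBTBD6 lie above 0.9 in all 9 cultures and SOX12 and DNAJC30 below 0, and the open circle of control replicate 2 is the lowest of all cultures in 19 genes.

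With TPR depleted, the N/C ratio of nearly every intronless gene was larger than in control cells, but for none did the change pass the threshold. In TPR A cultures the median change was 0.36 and in TPR D cultures 0.24, and 30 of 31 genes were above 0 in each comparison. For both shRNAs together it was 0.29 (1.22-fold), again with 30 of 31 above 0, ZXDB being at -0.01. Over all genes tested the median was 0.00 and 7259 of 14611 were above 0. The TPR A and TPR D comparisons share their control cultures, so their common direction is not a repeat of the result.

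By limma 0 of 31 members passed the threshold with TPR A, with TPR D or with both, as did 0% of all genes, and 0 of 31 had an unadjusted p under 0.05, where 251 of 14611 genes did with both shRNAs. The lowest unadjusted p among members was 0.0583 (adjusted p = 0.999) and the lowest adjusted p over all genes was 0.31. Standard errors of the members were 0.17 to 0.57, as large as most of the changes. This fit took the nuclear and cytoplasmic libraries of a culture as independent, so these errors do not measure the spread of the ratio between cultures. With the culture as a block in limma, 0 genes passed with TPR A, TPR D or both, the lowest adjusted p being 0.0844 with both. All 6 TPR-depleted cultures lay above all 3 control cultures in 2 members, KTI12 and MARS2 (6.45%, against 3.07% of all genes), and below them in 0 members (1.53% of all genes). The difference between the changes with TPR A and TPR D was -0.11 to 0.29 among members, and 0 of 31 passed its test, as did 0% of all genes.

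The size of the change rested in part on control replicate 2, whose median N/C ratio over the members was 0.07, against 0.30 and 0.29 in control replicates 1 and 3. The TPR-depleted cultures were at 0.50, 0.68 and 0.53 with TPR A and 0.47, 0.55 and 0.55 with TPR D, all above the 3 control medians. Without control replicate 2 the median change with both shRNAs was 0.19 and 27 of 31 genes were above 0, while KTI12 and MARS2 remained the non-overlapping members (4.09% of all genes then). Replicate 1, whose labels are written in another style, gave 0.10 with 19 of 31 above 0, replicate 3 gave 0.22 with 31 of 31, and replicates 2 and 3 together gave 0.45 with 31 of 31.

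Among genes of protein synthesis and mitochondria the median change was 0.48 (6 genes, all above 0), or 0.25 without control replicate 2. KTI12, which acts in modification of tRNA wobble bases (chr1:52497775-52499482, minus strand), had N/C ratios of -0.06, -0.75 and 0.06 in control, 0.36, 0.32 and 0.23 in TPR A and 0.14, 0.14 and 0.33 in TPR D cultures. The groups did not overlap, and the change was 0.50 ± 0.26 SE (unadjusted p = 0.0708, adjusted p = 0.999, limma), or 0.25 without control replicate 2. Its words shared with TXNDC12 limit this value.

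MARS2, the mitochondrial methionyl-tRNA synthetase (chr2:198570093-198573119, plus strand), had ratios of 0.54, -0.02 and 0.56 in control, 0.64, 0.95 and 1.02 in TPR A and 0.65, 0.75 and 0.94 in TPR D cultures. The lowest TPR-depleted culture stood just above the highest control culture, and the change was 0.46 ± 0.28 SE (limma adjusted p = 0.999), or 0.28 without control replicate 2. In FPKM, its cytoplasmic level was 4.81, 5.26 and 4.57 in control cells and 2.99 to 3.86 in the 6 TPR-depleted cultures, without overlap, while the nuclear levels overlapped. The change of the cytoplasmic level, -0.41 ± 0.20 SE, did not pass the test (adjusted p = 0.448).

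DNAJC30, DDX28, an RNA helicase of the mitochondrial ribosome, RRS1 and MOCS3, an activating enzyme for molybdenum cofactor synthesis and tRNA thiolation, had changes of 0.49, 0.57, 0.37 and 0.29, or 0.28, 0.25, 0.18 and 0.10 without control replicate 2. None had groups without overlap. For DDX28 the control ratio was 0.30, -0.59 and 0.48, so that the SD of the control group, 0.57 (n = 3), was as large as the change.

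Of 12 genes of transcription and nucleic acid binding 11 were above 0, with a median of 0.18. Without control replicate 2 these values were 11 and 0.19. ZNF830, a zinc finger protein of pre-mRNA splicing (chr17:33288559-33290796, plus strand), had the lowest unadjusted p of the set. Its ratio was 0.40, 0.14 and 0.59 in control, 1.16, 1.16 and 0.59 in TPR A and 0.75, 1.15 and 1.09 in TPR D cultures. A single TPR A culture reached down to the highest control culture, and the change was 0.60 ± 0.30 SE (unadjusted p = 0.0583, adjusted p = 0.999, limma), or 0.49 without control replicate 2.

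RNF113A, a zinc finger protein of the spliceosome (chrX:119004438-119005696, minus strand), had ratios of 0.23, -0.69 and 0.21 in control, 0.63, 0.56 and 0.47 in TPR A and 0.57, 0.06 and 0.41 in TPR D cultures. The change was 0.53 ± 0.33 SE (adjusted p = 0.999), and without control replicate 2 it was 0.23. The DNA- and RNA-binding proteins PURA and PURB were at 0.21 and 0.10, TAF7 at 0.41 and the arginine methyltransferase PRMT6 at 0.18. The TSPYL genes, relatives of nucleosome assembly proteins, were at 0.18 (TSPYL1), 0.02 (TSPYL4) and 0.02 (TSPYL5). Without control replicate 2 PURA and PURB were at 0.28 and 0.34, TAF7 at 0.23 and PRMT6 at 0.14. TSPYL1, TSPYL4 and TSPYL5 were then at 0.035, 0.081 and -0.004. Single genes thus moved in both directions.

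All 7 surface and signalling genes were above 0, with a median of 0.27. These were 5 of 7 and 0.14 without control replicate 2. CLDN4, a tight junction protein, had the largest change of the 31 members, 0.71 ± 0.57 SE, on control ratios of 0.52, -1.30 and 0.16. Without that culture it was 0.17. The Frizzled receptors were at 0.46 (FZD2), 0.20 (FZD1), 0.20 (FZD7) and 0.12 (FZD8), the secreted kinase relative FJX1 at 0.43 and RHOB at 0.27. With that culture left out the Frizzled genes were at 0.17, 0.12, -0.04 and -0.11 in the same order, FJX1 at 0.22 and RHOB at 0.14. The 3 genes of membrane traffic and glycan synthesis were at 0.47 (CHMP1B, of the ESCRT-III complex), 0.44 (EXOC8) and 0.37 (B3GALT6, a galactosyltransferase), and the ubiquitin ligase adaptors at 0.31 (FEM1A), 0.24 (KBTBD7) and 0.06 (KBTBD6). Of these 6, B3GALT6 moved to 0.22 and KBTBD6 to -0.03 without that culture, and the others stayed within 1.5 times.

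Spliced genes of the same families and complexes were compared to show where intronless genes differ. Of 110 such relatives 57 had an N/C change above 0 with both shRNAs, with a median of 0.04, and without control replicate 2 these were 48 and -0.04. In the exocyst, 1 of the 8 spliced subunits lay above 0, with a median of -0.17, beside 0.44 in EXOC8. The spliced Wnt receptors and their partners had a median of -0.04 (3 of 8 above 0), whereas the 4 intronless Frizzled genes were at 0.12 to 0.46. Without control replicate 2 the spliced set had 0.02 (4 of 8 above 0) and 2 of the 4 intronless Frizzled genes were above 0 (-0.11 to 0.17), so this contrast rested on that culture. That of the exocyst, -0.19 beside 0.45 in EXOC8, did not, but it rests on a single intronless gene whose groups overlapped. The EXOC8 ratio was 1.69, 1.53 and 1.33 in control, 1.90, 2.55 and 1.39 in TPR A and 1.46, 2.43 and 2.01 in TPR D cultures. Its change of 0.44 had an SE of 0.35 (limma adjusted p = 0.999). RHOA and RHOC, spliced relatives of RHOB, were at 0.18 and 0.32 with all cultures, beside its 0.27.

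Other single-exon protein-coding genes, 173 in number and including histone genes, had a median change of 0.30 with 143 above 0, close to the 0.29 of the members. All 6 TPR-depleted cultures lay above the control cultures in 13.3% of them. The 12177 multi-exon genes had a median of -0.01 and 5964 above 0. These counts describe the lists, and no test of a list was made.

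**Figure D2:**
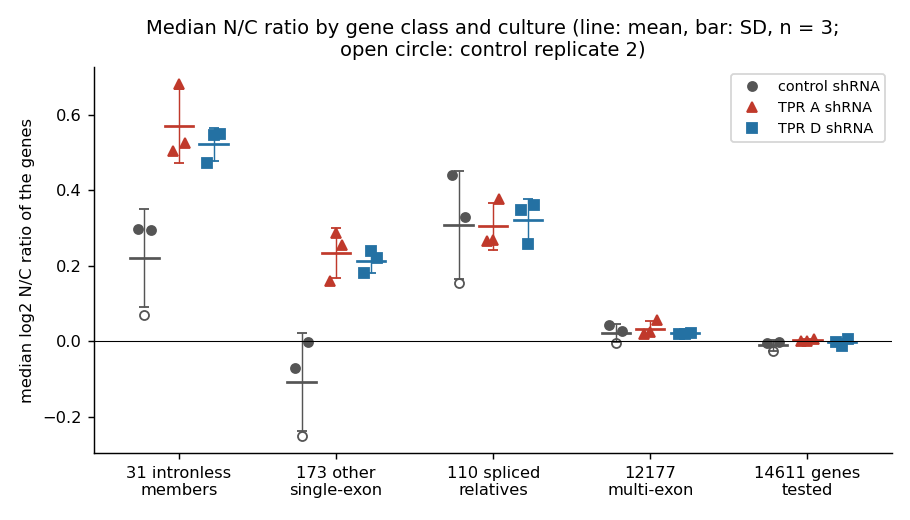
The median log2 N/C ratio (y axis) over the genes of 5 classes (x axis) in each of the 9 cultures, with the mean and SD over 3 cultures per shRNA. In the 31 intronless genes the TPR-depleted medians of 0.47 to 0.68 lie above the control medians of 0.07 to 0.30, whereas in the spliced relatives the groups overlap.

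Shorter intronless mRNAs had the larger N/C changes when all cultures were used. Over the 31 genes the rank correlation between mRNA length and the change with both shRNAs was -0.67 (Spearman; Pearson -0.65 on log2 length). The 14 mRNAs up to 3032 nt had a median change of 0.47 (0.18 to 0.71), and the 17 from 3779 nt had 0.20 (-0.01 to 0.46), a division drawn after the values were seen. Without control replicate 2 the correlation was -0.13 and the medians were 0.23 and 0.12, so that the relation rested on that culture. In the 12177 multi-exon genes the rank correlation was -0.54 with all cultures and -0.41 without control replicate 2. These are correlations across genes measured in the same libraries, and genes are not independent replicates.

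**Figure D3:**
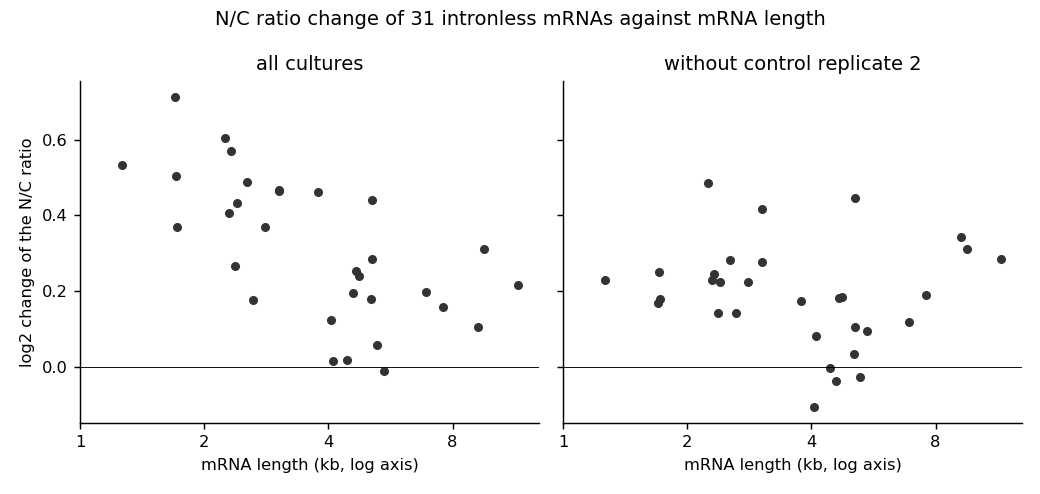
The log2 change of the N/C ratio with both TPR shRNAs (y axis) against mRNA length in kb (x axis, log scale) for 31 intronless genes, 1 point per gene, with all cultures (left) and without control replicate 2 (right). The downward slope on the left, with a rank correlation of -0.67, is not seen on the right, where it is -0.13.

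With GC content the rank correlation over the members was 0.23 for the N/C change, -0.31 without control replicate 2, and -0.44 for the control N/C ratio, for which that with length was 0.27. The 12 mRNAs with GGTAAG had a median N/C ratio of 0.28 in control cells and a median change of 0.21. For the 19 without it these were 0.17 and 0.37. The mRNAs with the motif were also longer, 2536 nt to 11511 nt against 1259 nt to 5467 nt, and without control replicate 2 the medians of the change were 0.23 and 0.18, in the opposite order.

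The N/C change can come from either fraction, and in the intronless genes the cytoplasmic level was the more uniform. The median change of the cytoplasmic level with both shRNAs was -0.25, with 25 of 31 genes below 0, while all genes had -0.02, and 10 of 31 genes had an unadjusted p under 0.05, all of them lower (5.91% of all genes were lower at this p). That of the nuclear level was 0.06, with 18 of 31 above 0. Without control replicate 2 these were -0.21 (24 below 0) and -0.03 (15 above 0). The 173 other single-exon genes were then close to this, with medians of -0.25 in the cytoplasm and -0.01 in the nucleus. The pattern was thus not particular to the members. With all cultures, the nuclear level was above and the cytoplasmic level below the control in 12 of the 31 members. Another 13 members were below in both fractions and 6 above in both. By role, all 12 genes of transcription and nucleic acid binding and all 6 of translation and mitochondria lay below 0 in the cytoplasm, against 2 of the 7 surface genes.

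**Figure D4:**
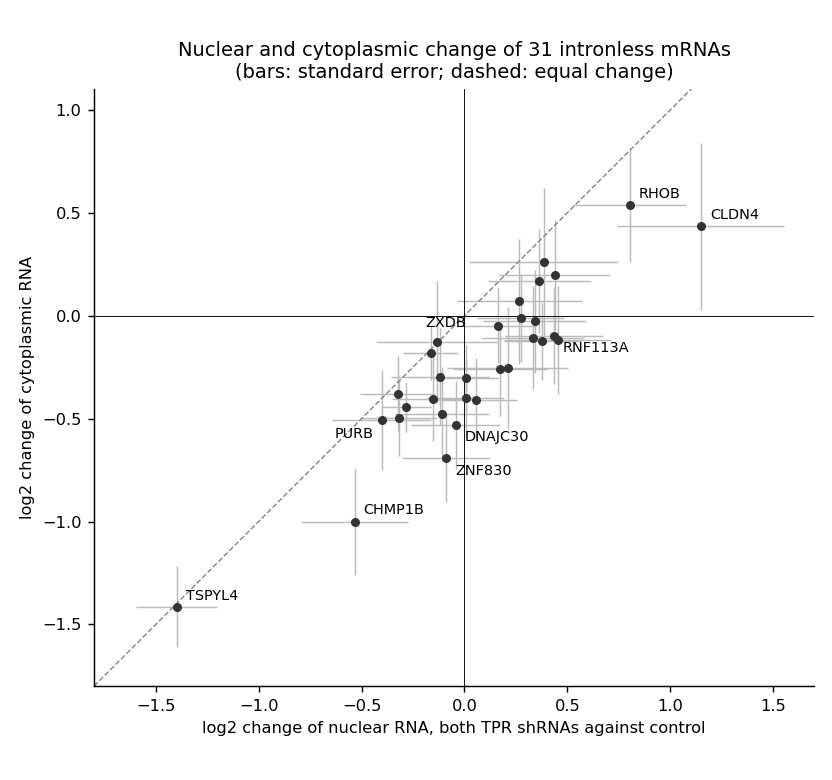
The log2 change of cytoplasmic RNA (y axis) against that of nuclear RNA (x axis) with both TPR shRNAs for 31 intronless genes, with standard errors from limma. For 30 of 31 genes the point lies below the dashed line of equal change, and TSPYL4 lies close to it at -1.40 and -1.41.

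TSPYL4 was the intronless gene whose fall passed the threshold in both fractions. This relative of nucleosome assembly proteins lies at chr6:116571127-116575238 on the minus strand. In the nucleus it was at 7.43, 7.89 and 11.1 FPKM in control, 3.34, 2.64 and 2.71 in TPR A and 4.0, 3.06 and 3.75 in TPR D cultures. In the cytoplasm it was at 6.15, 5.77 and 9.24 FPKM in control, 2.78, 1.69 and 1.96 in TPR A and 3.4, 2.37 and 3.11 in TPR D cultures. No TPR-depleted library reached a control library. In bulk RNA a lower level per cell and fewer cells with the mRNA cannot be told apart. The nuclear level fell by 1.40 on the log2 scale (SE 0.20, adjusted p = 0.00144, limma) and the cytoplasmic level fell by 1.41 (SE 0.20, adjusted p = 0.000775), to 0.379-fold and 0.375-fold of control.

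With replicates 2 and 3 alone, where few genes passed, its nuclear change was -1.61 ± 0.26 SE (adjusted p = 0.0661). It was the only member called in these comparisons, where 0.24% of all genes passed as lower in the nucleus and 0.253% in the cytoplasm. The N/C change of TSPYL4 was thus near 0 (0.02 ± 0.28 SE). TSPYL1 and TSPYL5, its intronless relatives, had nuclear changes of -0.12 and -0.16 and cytoplasmic changes of -0.30 and -0.18. The spliced relative TSPYL2 was at 0.64 and 0.82, and did not pass either.

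CHMP1B, which acts in membrane scission, followed in size. Its cytoplasmic level was 11.7, 11.5 and 16.5 FPKM in control and 4.01 to 10.1 FPKM in the TPR-depleted cultures, without overlap (log2 -1.0 ± 0.26 SE, adjusted p = 0.0811). Blocking on replicate number, CHMP1B passed (adjusted p = 0.00337), as did ATXN7L3B (log2 -0.44, adjusted p = 0.0416), while the share of all genes lower rose to 1.07%. The replicate numbers did not pair all control and TPR-depleted libraries of this fraction.

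In total RNA 0 of 31 intronless genes passed with TPR A (0.821% of all genes), with TPR D (0.753%) or with both (1.14%), and 4 had an unadjusted p under 0.05 with both, where 16.1% of all genes did. The median change with both was 0.08, with 19 of 31 above 0. Without control replicate 2, the library labelled total with few mitochondrial transcripts, it was 0.28 with 23 of 31 above 0, and the median of the spliced relatives moved from -0.22 to -0.06. The members then had medians of -0.03 in the nucleus and -0.21 in the cytoplasm, so that the total median lay above both fractions. The cause of this was not tested.

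EXOC8 in total RNA was at 3.93, 4.27 and 4.46 FPKM in control, 6.46, 8.33 and 7.30 in TPR A and 7.0, 7.92 and 8.11 in TPR D cultures, without overlap. The change was 0.88 ± 0.25 SE (adjusted p = 0.0832, limma), beside 0.33 in the nucleus and -0.11 in the cytoplasm. The spliced exocyst subunits had a median of -0.35 in total RNA. KBTBD7 was at 1.40, 1.53 and 1.49 FPKM in control and 2.07 to 3.14 FPKM in the TPR-depleted cultures, also without overlap (log2 0.93 ± 0.27 SE, adjusted p = 0.0885). Its change was 0.44 in the nucleus and 0.20 in the cytoplasm. For EXOC8 and KBTBD7 the total RNA thus changed more than either fraction, and the cause was not tested. TSPYL4 was at 7.94, 7.69 and 10.2 FPKM in control and 4.49 to 5.01 FPKM in the TPR-depleted cultures, again without overlap (log2 -0.77 ± 0.20 SE, adjusted p = 0.0574). Blocking on replicate number, all 3 of these genes passed in the comparison of both shRNAs (adjusted p = 0.0299, 0.0365 and 0.0211), as did 3.83% of all genes. For TPR A against control in total RNA, where each same-numbered pair of libraries deviated together, TSPYL4 passed with the block (adjusted p = 0.0418), as did 2.59% of all genes. For TPR D, KBTBD7 and TSPYL4 passed with it (adjusted p = 0.0383 and 0.0497), as did 3.16% of all genes.

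RHOB in total RNA was at 53.3, 130 and 59.5 FPKM in control, 143, 150 and 155 in TPR A and 179, 92.5 and 120 in TPR D cultures. Control replicate 2 lay above 2 of the TPR D cultures. The change was 0.94 ± 0.28 SE (adjusted p = 0.0912), and without that culture it was 1.31 ± 0.23 SE (adjusted p = 0.0148). RHOB then also passed with each shRNA in limma, at 1.43 with TPR A (adjusted p = 0.0189) and 1.20 with TPR D (adjusted p = 0.0434). Over all genes 28 of 14611 then passed as higher with both shRNAs, 25 with TPR A and 30 with TPR D. EXOC8, KBTBD7 and TSPYL4 did not pass there. RHOB in control replicate 2 was also the highest control in the nucleus (104 FPKM against 63.7 and 73.5) and cytoplasm (138 against 67.4 and 71.4). The RHOB calls thus rest on leaving out its highest control culture.

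Some members had unlike values with the 2 shRNAs in total RNA, although the difference was not tested. FZD1 was at 0.00 with TPR A and 0.76 with TPR D, FZD7 at -0.16 and 0.68, and PURA at 0.13 and 0.61, with no adjusted p past the threshold.

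**Figure D5:**
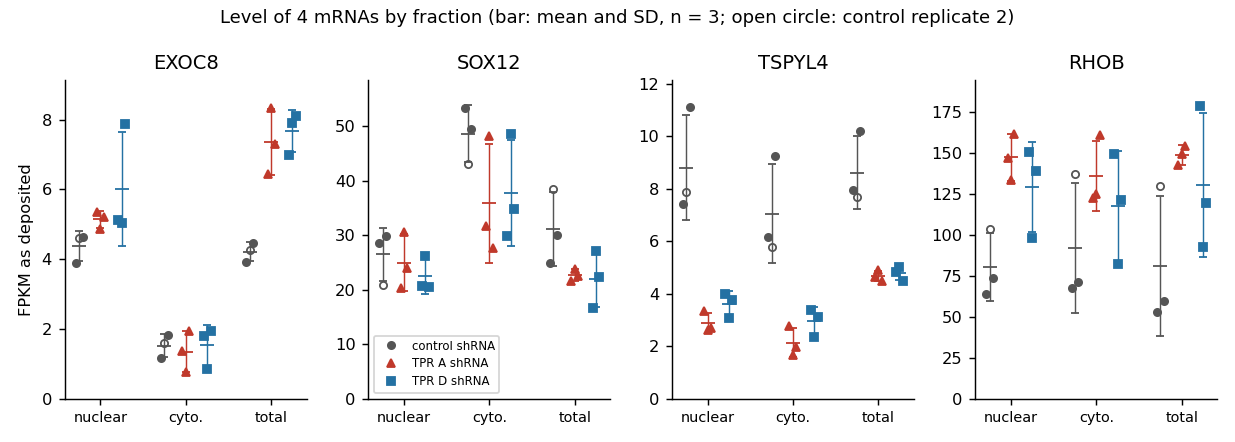
FPKM as deposited (y axis) of EXOC8, SOX12, TSPYL4 and RHOB in the nuclear, cytoplasmic/ER and total libraries (x axis), 1 point per library with the mean and SD of 3. The TSPYL4 values of TPR-depleted cells lie below all control values in each fraction, and EXOC8 values lie above all control values in total RNA.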

How the data were processed

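The deposited values are FPKM per gene in 27 libraries, which the authors made with Salmon on hg19 transcripts of GENCODE v19 and tximport. Salmon and DESeq2 are named in the submitters' processing notes, without the strand setting. FPKM was scaled by the median of ratios (factors 0.945 to 1.05) and analysed as log2(FPKM + 0.1). Genes had to exceed 1 FPKM on average, and 13 mitochondrial genes were dropped, which left 14611. One limma 3.58.1 model with trend (R 4.3.3) was fitted to all 9 groups, with Benjamini-Hochberg adjustment over all genes and a threshold of 0.05. A fold change on this scale understates that of low genes. Nuclear and cytoplasmic libraries of a culture deviated together (correlation 0.223 to 0.468 in all 9 cultures), so a culture block is given for N/C ratios. Same-numbered total libraries of control and TPR A also did (0.137 to 0.324), whereas other control and TPR-depleted pairs did not all exceed 0.1. The fit was tested on simulated data, with N/C changes larger than those of the members and with noise independent between libraries. Smaller changes and libraries that deviate together were not simulated.

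Members and lists were chosen with earlier results of these data known. Members given in full were those called in any comparison, the 5 with the lowest unadjusted p for the N/C change, the extremes of the control N/C ratio and the member with the highest mean FPKM. CLDN4, DDX28 and CHMP1B were added after their values were seen. Figures and summaries used Python 3.11.15, numpy 2.4.6, pandas 2.3.3, scipy 1.17.1 and matplotlib 3.10.9. Alternatives were another pseudocount, other minimum levels, FPKM as deposited, replicate blocks and leaving out each culture.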

Additional observations from a re-analysis of the deposited data

How the results depend on the processing

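The median N/C change of the 31 intronless genes stayed above 0, and 0 members passed, under every alternative run. Leaving out each culture in turn gave medians of 0.241 to 0.465 with TPR A, 0.133 to 0.339 with TPR D and 0.185 to 0.372 with both, and replicates 2 and 3 alone, an alternative chosen after seeing the data, gave 0.454. The number of members passing for the control N/C ratio, 7 in the analysis as reported, was 4 to 8 with a culture left out, 4 with a minimum mean of 5 FPKM, where EXOC8, KBTBD6, KBTBD7 and DNAJC30 were no longer among the 25 members tested, 2 with replicates 2 and 3 alone and 11 with the replicate block by culture. Over all genes 2945 passed as nuclear and 2805 as cytoplasmic in the analysis as reported. These were 1895 and 1794 without control replicate 1, and 2256 and 2254 of 10344 genes with the minimum of 5 FPKM. With replicates 2 and 3 alone they were 1649 and 1576, and with the block by culture 3440 and 3425. In the nucleus 0 members passed with replicates 2 and 3 alone, where 3 genes passed as higher and 1 as lower. In the cytoplasm 2 passed with no minimum level and 3 with the replicate block, all of them lower. Of all genes, 59 of 30252 and 157 of 14611 then passed as lower. In total RNA, where none passed as reported, a replicate block gave 1 member with TPR A, 2 with TPR D and 3 with both, while over all genes the calls rose from 120 to 378, from 110 to 461 and from 166 to 559. A pseudocount of 1 gave 1 with TPR D and 3 with both, FPKM as deposited gave 1 and no minimum level 1 with both, and leaving out a culture gave 0 to 1 in each of the 3 comparisons. Over all genes the pseudocount of 1 gave 80 higher and 74 lower with TPR D, and 160 and 63 with both. With both shRNAs FPKM as deposited gave 77 and 75, and no minimum level 125 and 84 of 30252 genes. The replicate block moved no other count of members past 1.5 times. Medians near 0 changed sign with a culture left out: -0.032 to 0.121 for the nuclear change and, for total RNA, -0.045 to 0.088 with TPR A, -0.03 to 0.329 with TPR D and -0.024 to 0.283 with both. The cause of these differences was not tested. With 3 cultures a group and standard errors of 0.17 to 0.57, N/C changes of the size seen here were not called, with or without the block by culture. The lowest library of KBTBD7 held about 54 reads of its mRNA.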
